A study of Mus musculus with 18 samples.

Results

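Smooth and skeletal muscle actin genes were followed in mouse embryonic stem cells depleted of Esrrb. The set holds 10 genes (target names ACTA1, ACTA2, ACTG2, ACTC1, TAGLN, CNN1, MYL9, TPM1, TPM2 and SRF): the actins Acta1, Acta2, Actg2 and Actc1, the actin-binding genes Tagln, Cnn1, Myl9, Tpm1 and Tpm2, and the transcription factor gene Srf. Every probe whose target name was one of these genes was taken, which gave 18 of the 46643 probes and 10 of the 34325 target names on the array. The genes were chosen because Acta1 and Acta2 had shown large rises at days 4 and 6, so their values on those days, and the time course of the knockdown cells, are given as a description with no test. Day 2 used other arrays and was tested, as was the time course of the control cells for the genes other than Acta1 and Acta2.

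The established mouse embryonic stem cell line E14 was used, grown on gelatin with serum and with LIF, a cytokine that holds such cells undifferentiated. Cells transfected with a pSUPER.puro plasmid for an shRNA that targets Esrrb, a nuclear receptor gene of self-renewal, were compared with cells given the same kind of plasmid with an shRNA against GFP. Each shRNA was measured at day 2, day 4 and day 6 with 3 biological replicates, which gave 6 groups and 18 Illumina MouseWG-6 arrays. A single shRNA label covers the Esrrb arrays, so its off-target effects and the loss of Esrrb cannot be told apart. In bulk samples such as these, fewer cells of a type and less RNA per cell cannot be told apart.

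Actins are the subunits of thin filaments. Acta1 is the skeletal muscle form, Actc1 the cardiac form, Acta2 the vascular smooth muscle form and Actg2 the enteric smooth muscle form, and all 4 proteins are nearly identical in sequence. Outside muscle, Acta2 is the usual marker of contractile fibroblasts, and stress fibres carry myosin light chain (Myl9), tropomyosins (Tpm1, Tpm2), transgelin (Tagln) and calponin (Cnn1). SRF, the product of Srf, binds a short AT-rich element called the CArG box in the promoters of many of these genes, together with cofactors that respond to free actin or to growth factor signals.

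The promoters show how far that element is shared. RefSeq sequence (GRCm38.p6) of the 250 bases before the annotated start was at hand for 8 of the 10 genes. A CArG box (CC, then 6 bases of A or T, then GG; both strands) was found in 4 of these 8, in Acta1, Actc1, Myl9 and Srf, against 1.47% of 32851 promoters of the same length. Allowing up to 1 G or C among the 6 core bases added Acta2, which made 5 of 8 genes, against 8.59% of all promoters. Neither form was found in the windows of Cnn1, Tpm1 and Tpm2. The 5 promoters with a match follow, 5′ to 3′ on the strand of the gene, with every match of either form in capitals. The Acta1 window is chr8:123894776-123895025, minus strand. The Acta2 window is chr19:34255374-34255623, minus strand. The Actc1 window is chr2:114052876-114053125, minus strand. The Myl9 window is chr2:156775214-156775463, plus strand. The Srf window is chr17:46556163-46556412, minus strand.
Acta1: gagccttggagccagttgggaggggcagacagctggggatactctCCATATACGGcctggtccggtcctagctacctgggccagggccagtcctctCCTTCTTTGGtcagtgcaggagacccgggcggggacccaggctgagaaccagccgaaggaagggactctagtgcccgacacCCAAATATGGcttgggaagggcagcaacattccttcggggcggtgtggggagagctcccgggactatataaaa
Acta2: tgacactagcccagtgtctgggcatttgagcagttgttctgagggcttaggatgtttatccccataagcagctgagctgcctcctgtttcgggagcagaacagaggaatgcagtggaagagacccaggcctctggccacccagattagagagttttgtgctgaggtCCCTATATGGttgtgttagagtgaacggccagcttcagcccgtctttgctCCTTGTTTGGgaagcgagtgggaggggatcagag
Actc1: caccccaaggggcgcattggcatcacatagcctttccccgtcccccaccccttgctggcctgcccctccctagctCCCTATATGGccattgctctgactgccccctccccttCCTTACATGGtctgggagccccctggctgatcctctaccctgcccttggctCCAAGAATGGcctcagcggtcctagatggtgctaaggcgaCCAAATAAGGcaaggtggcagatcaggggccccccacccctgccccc
Myl9: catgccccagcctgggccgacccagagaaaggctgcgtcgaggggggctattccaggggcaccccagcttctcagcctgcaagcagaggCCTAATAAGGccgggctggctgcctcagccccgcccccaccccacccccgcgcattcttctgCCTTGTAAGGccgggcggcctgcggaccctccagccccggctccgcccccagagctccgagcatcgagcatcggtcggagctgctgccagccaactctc
Srf: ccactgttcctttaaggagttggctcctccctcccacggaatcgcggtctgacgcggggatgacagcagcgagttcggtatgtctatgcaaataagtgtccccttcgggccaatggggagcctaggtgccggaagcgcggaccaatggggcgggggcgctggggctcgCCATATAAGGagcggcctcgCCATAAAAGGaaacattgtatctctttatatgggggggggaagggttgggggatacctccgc

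In Acta1 the exact box, CCAAATATGG, lies 73 to 64 bases before the start. In Acta2 both matches carry 1 G or C in the core: CCCTATATGG, 84 to 75 bases before the start, and CCTTGTTTGG, 34 to 25 bases before it. Srf has 2 exact boxes, CCATATAAGG at 82 to 73 bases and CCATAAAAGG at 62 to 53 bases before the start. These are matches of letters. Whether SRF was bound there was not measured.

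On each array the intensity of a probe was background-corrected, quantile-normalized and put on a log2 scale, and a probe was called detected on an array when its detection p was under 0.05. Arrays had raw median intensities of 60.4 to 76.9 and detected 37.7% to 42.6% of their probes, at a median of 37 beads a probe. Testing required detection on the 3 arrays of 1 or more groups, and 19480 probes met this. Of the 18 muscle actin and partner probes, 14 passed and 4 did not. Acta2 probe 4, Tagln probe 2 and Cnn1 probe 1 were detected on 0 of 18 arrays, and Tpm2 probe 2 on 5 of 18, where probe 1 is the brightest of a gene. Acta2 probes 2 and 3, Actg2 probe 1, both Actc1 probes and Tagln probe 1 passed only through the Esrrb shRNA cells at day 6. These 6 probes are therefore no support for a rise at that day, however many of them are counted. The files used here give no probe sequences, so cross-hybridisation between the near-identical actin transcripts was not tested, and no level is compared between genes of the set. The summed levels of other gene lists, further below, add intensities of different probes and are set between groups. The share of the brightest gene shows how far 1 probe carries such a sum.

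Esrrb was lower in the Esrrb shRNA cells on all 3 days. Its bright probe differed from that of GFP shRNA cells by -2.23 at day 2, -2.72 at day 4 and -1.87 at day 6 (log2, SE 0.11, n = 3 per group, limma adjusted p 6.79e-11 or less). Its dim probe differed by -0.14, 0.03 and -0.02 (SE 0.12). The 3 replicates are also the 3 BeadChips, each of which held 1 array of every group, so differences within a BeadChip are given as the within-batch values. Position on the BeadChip was the same for a group on all 3 chips and cannot be told apart from the group.

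Acta2, the smooth muscle actin, was the only muscle actin with a difference that passed the test at day 2, and it did so on probe 1 alone. On that day its probe 1 read 5.49, 6.07 and 5.73 in Esrrb shRNA cells, against 4.44, 4.66 and 4.95 in GFP shRNA cells (log2 intensity of replicates 1, 2 and 3). The 3 Esrrb arrays all detected it and lay above the GFP arrays, none of which did. The difference was 1.07 (SE 0.15, limma adjusted p 4.16e-05), at least 1.65-fold higher when the undetected group is set to the detection floor, and 1.05, 1.41 and 0.77 within the BeadChips. It passed the test under 13 of 13 alternatives, at 0.59 to 1.21, where 0.59 is the value without background correction.

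At day 4, Acta2 probe 1 read 9.02, 9.05 and 9.23 in Esrrb shRNA cells, against 5.45, 5.36 and 5.08 in GFP shRNA cells, where 2 of 3 arrays detected it. At day 6 it read 11.54, 11.20 and 11.43 in Esrrb shRNA cells, against 7.06, 6.96 and 7.09 in GFP shRNA cells. The groups were far apart on both days. The differences were 3.80 (SE 0.15, 14.0-fold) at day 4 and 4.35 (20.4-fold) at day 6, and the values within BeadChips ran from 3.57 to 4.15 and from 4.24 to 4.48. Without background correction they were 2.82 and 3.96.

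Over the 6 groups, Acta2 probe 1 was highest in Esrrb shRNA cells at day 6, then in Esrrb shRNA cells at day 4, GFP shRNA cells at day 6, Esrrb shRNA cells at day 2, GFP shRNA cells at day 4 and GFP shRNA cells at day 2. No neighbours in this order overlapped in their 3 arrays. Within Esrrb shRNA cells the level at day 4 was above that at day 2 by 3.34, and that at day 6 above day 4 by 2.29. Within GFP shRNA cells the corresponding differences were 0.61, at least 1.20-fold, and 1.74, and without background correction 0.35 and 1.07.

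Acta1, the skeletal muscle actin, showed no difference past the threshold at day 2. Its single probe read 4.76, 4.60 and 4.44 in Esrrb shRNA cells and 4.44, 4.48 and 4.39 in GFP shRNA cells, and no array of either group detected it. The ranges overlapped, and the difference was 0.17 (SE 0.14, limma adjusted p 0.509). With both groups below detection, no fold is given.

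At day 4, Acta1 read 8.21, 8.13 and 8.02 in Esrrb shRNA cells, against 4.99, 4.65 and 4.60 in GFP shRNA cells, none of which was a detection. At day 6 it read 9.87, 10.19 and 10.12 in Esrrb shRNA cells, against 5.88, 6.14 and 5.56 in GFP shRNA cells, all detected. The Esrrb arrays stood above every GFP array on both days. The differences were 3.37 (SE 0.14, at least 8.28-fold) at day 4 and 4.20 (18.4-fold) at day 6, with 3.22 to 3.48 and 3.99 to 4.56 within BeadChips. Without background correction they were 2.24 and 3.44.

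Acta1 was thus detected in Esrrb shRNA cells at days 4 and 6 and in GFP shRNA cells at day 6. In the order of its 6 groups these came first, with Esrrb shRNA cells at day 6 on top, and their ranges did not overlap. The other 3 groups were undetected and GFP shRNA cells at day 4, Esrrb shRNA cells at day 2 and GFP shRNA cells at day 2 overlapped with their neighbours. In GFP shRNA cells, day 6 stood above day 4 by 1.12, at least 1.73-fold, and by 0.59 without background correction.

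**Figure D1:**
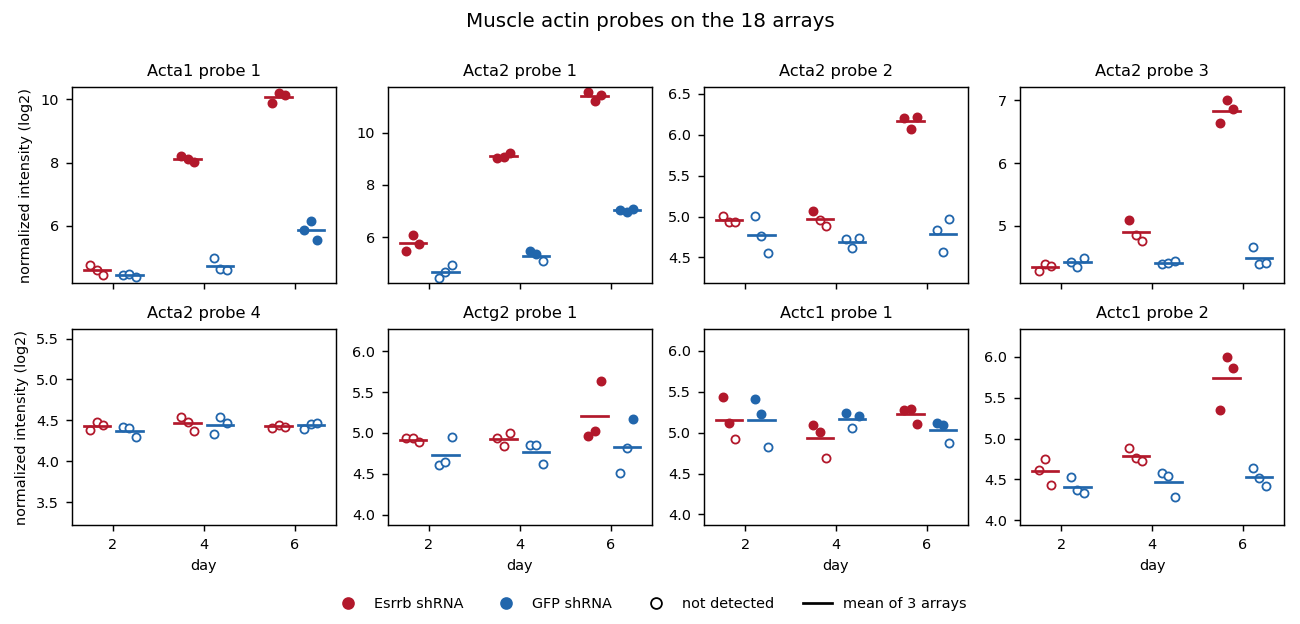
Normalized log2 intensity of every muscle actin probe on the 18 arrays, by day, with Esrrb shRNA in red and GFP shRNA in blue. Open points are arrays that did not detect the probe and bars are means of 3 arrays; Acta2 probe 1 separates from day 2, Acta1 from day 4, and Actc1 probe 2 and Acta2 probes 2 and 3 stand farthest apart at day 6. Each panel has its own vertical scale.

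The other Acta2 probes were dim and did not repeat the size of probe 1. Probe 3 read 6.64, 7.01 and 6.86 at day 6 in Esrrb shRNA cells, against 4.66, 4.39 and 4.40 in GFP shRNA cells, where it was undetected. That is a difference of 2.35 (SE 0.11) and at least 3.55-fold. Probe 2 read 6.21, 6.07 and 6.22 in Esrrb shRNA cells, against 4.84, 4.57 and 4.97 in undetected GFP shRNA cells, a difference of 1.37 (SE 0.12) and at least 2.23-fold. Neither pair of groups overlapped at day 6. Without background correction the differences were 1.44 for probe 3 and 0.74 for probe 2. At day 4 probe 3 differed by 0.49 and probe 2 by 0.28, with 1 of 3 Esrrb arrays detecting each. At day 2 probe 3 differed by -0.07 (limma adjusted p 0.745) and probe 2 by 0.19 (limma adjusted p 0.347). Acta2 probe 4 lay between 4.29 and 4.55 on all 18 arrays.

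Actc1, the cardiac actin, gave a different picture on each probe. Probe 2 read 5.36, 5.99 and 5.87 at day 6 in Esrrb shRNA cells, against 4.64, 4.52 and 4.42 in GFP shRNA cells. All 3 Esrrb arrays and 0 of 3 GFP arrays detected it, which made a difference of 1.21 (SE 0.14), at least 1.66-fold, and of 0.69 without background correction. Probe 1 differed by -0.23 at day 4 and 0.20 at day 6 (SE 0.15), with overlapping arrays on both days, and by -0.12 and 0.10 without background correction. At day 2 the 2 probes differed by 0.00 (probe 1, limma adjusted p 0.994) and 0.19 (probe 2, limma adjusted p 0.450).

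Actg2, the enteric smooth muscle actin, overlapped between the shRNAs on all 3 days. At day 6 its probe read 4.96, 5.03 and 5.64 in Esrrb shRNA cells, against 4.51, 4.81 and 5.17 in GFP shRNA cells. All 3 Esrrb arrays and 1 of 3 GFP arrays detected it, the difference was 0.38 (SE 0.16), and it was 0.16 without the third Esrrb array. At day 2 it was 0.19 (SE 0.16, limma adjusted p 0.544). Without background correction the day 6 difference was 0.22.

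Tagln encodes the calponin-related actin-binding protein transgelin. Its probe 1 passed the detection filter only through the Esrrb shRNA cells at day 6, so it is no support for a rise at that day. Probe 1 read 6.04, 6.25 and 6.15 at day 6 in Esrrb shRNA cells, against 4.29, 4.30 and 4.35 in GFP shRNA cells. It was undetected in the 5 groups other than Esrrb shRNA at day 6. The difference at day 6 was 1.83 (SE 0.09), at least 2.20-fold, after 0.23 at day 4 and 0.07 at day 2 (limma adjusted p 0.714). Tagln probe 2 lay between 4.38 and 4.63 on all arrays, with no detection. Cnn1, calponin 1, lay between 4.32 and 4.78, also with no detection.

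Myl9, the regulatory light chain of smooth muscle and non-muscle myosin II, was detected from the start and differed on all 3 days. At day 2 its probe 2 read 6.21, 6.21 and 6.11 in Esrrb shRNA cells, against 5.60, 5.78 and 5.55 in GFP shRNA cells. The groups did not overlap, and the difference was 0.54 (SE 0.11, limma adjusted p 0.00371), with 0.61, 0.43 and 0.56 within BeadChips and 0.31 without background correction. Its probe 1 read 6.75, 6.81 and 6.24 in Esrrb shRNA cells, against 6.34, 6.02 and 6.16 in GFP shRNA cells. These overlapped, and the difference of 0.43 (limma adjusted p 0.0498) stayed past the threshold under 6 of 13 alternatives, and was 0.28 without background correction. The call was lost without Esrrb shRNA replicate 1 (limma adjusted p 0.181) or 2 (0.206), without GFP shRNA replicate 2 (0.159) or 3 (0.0909), and also under median centring, without the detection filter and with the arrays of the 2 groups alone.

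The Myl9 differences were larger on the later days. Probe 1 differed by 1.12 at day 4 and 2.06 at day 6 (SE 0.14), and probe 2 by 1.23 and 1.84 (SE 0.11). Without background correction they were 0.77 and 1.36 for probe 1, and 0.78 and 1.09 for probe 2. At day 6 probe 1 read 7.37, 7.70 and 7.45 in Esrrb shRNA cells, against 5.55, 5.32 and 5.47 in GFP shRNA cells. The level in the control cells was not constant. In GFP shRNA cells Myl9 fell between days 4 and 6, with differences of -0.61 on probe 1 (limma adjusted p 0.00169) and -0.58 on probe 2 (limma adjusted p 0.000616). Without background correction they were -0.33 and -0.29, both still called. At day 6 probe 2 was near the detection floor in GFP shRNA cells, with a mean of 5.09 and detection on 2 of 3 arrays. In Esrrb shRNA cells day 6 stood above day 4 by 0.33 on probe 1 and 0.02 on probe 2.

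Tpm1, alpha-tropomyosin, which winds along the actin filament, was also higher at day 2. Its probe read 9.00, 9.07 and 8.97 in Esrrb shRNA cells, against 8.55, 8.56 and 8.49 in GFP shRNA cells. The groups did not overlap, and the difference was 0.48 (SE 0.11, limma adjusted p 0.0058), close to equal within the BeadChips at 0.46, 0.51 and 0.48. At day 4 it read 9.48, 9.64 and 9.63 in Esrrb shRNA cells, against 8.14, 8.44 and 8.30 in GFP shRNA cells. At day 6 it read 10.49, 10.12 and 10.51 in Esrrb shRNA cells, against 8.19, 8.37 and 8.27 in GFP shRNA cells. The differences were 1.29 (2.44-fold) and 2.09 (4.27-fold), and the level in GFP shRNA cells showed no change past the threshold between days 2 and 4 (-0.24, limma adjusted p 0.127) or 4 and 6 (-0.02, limma adjusted p 0.922).

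Tpm2, beta-tropomyosin, had smaller differences. At day 2 its probe 1 read 8.52, 8.56 and 8.63 in Esrrb shRNA cells, against 8.27, 8.44 and 8.27 in GFP shRNA cells. The arrays did not overlap, but the difference of 0.24 (SE 0.10, limma adjusted p 0.127) did not pass the threshold. It was 0.66 at day 4 (1.58-fold) and 1.43 at day 6 (2.69-fold). In GFP shRNA cells Tpm2 rose between days 2 and 4 by 0.49 (SE 0.10, limma adjusted p 0.00157), so both shRNA groups moved up over that interval, the Esrrb shRNA cells by 0.90. The arrays of Tpm2 probe 2 overlapped between the shRNAs on each day, with group means of 4.80 to 5.18.

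Srf itself, which encodes the CArG-binding factor, moved little. At day 2 its probe 1 read 10.08, 10.26 and 10.09 in Esrrb shRNA cells, against 9.67, 9.74 and 10.03 in GFP shRNA cells. The lowest Esrrb array lay just above the highest GFP array, and the difference was 0.33 (SE 0.10, limma adjusted p 0.047). The call held under 5 of 13 alternatives. It was lost without any 1 of Esrrb shRNA replicates 1 (limma adjusted p 0.0709), 2 (0.169) and 3 (0.071) or GFP shRNA replicates 1 (0.169) and 2 (0.127), and under the same 3 settings as for Myl9 probe 1. Probe 1 differed by 0.39 at day 4 and 0.55 at day 6 (1.46-fold). The dim probe 2 differed by 0.18 at day 2 (SE 0.17, limma adjusted p 0.574), 0.09 at day 4 and 0.54 at day 6, with overlapping arrays, and by 0.29 at day 6 without background correction. In GFP shRNA cells probe 2 fell between days 4 and 6 (-0.58, limma adjusted p 0.0113, and -0.31 without background correction), with 1 of 3 arrays detecting it at day 6. That call was lost without GFP shRNA day 6 replicate 2 (limma adjusted p 0.0806) or 3 (0.0594), and probe 1 showed 0.08 over the same interval (limma adjusted p 0.589).

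**Figure D2:**
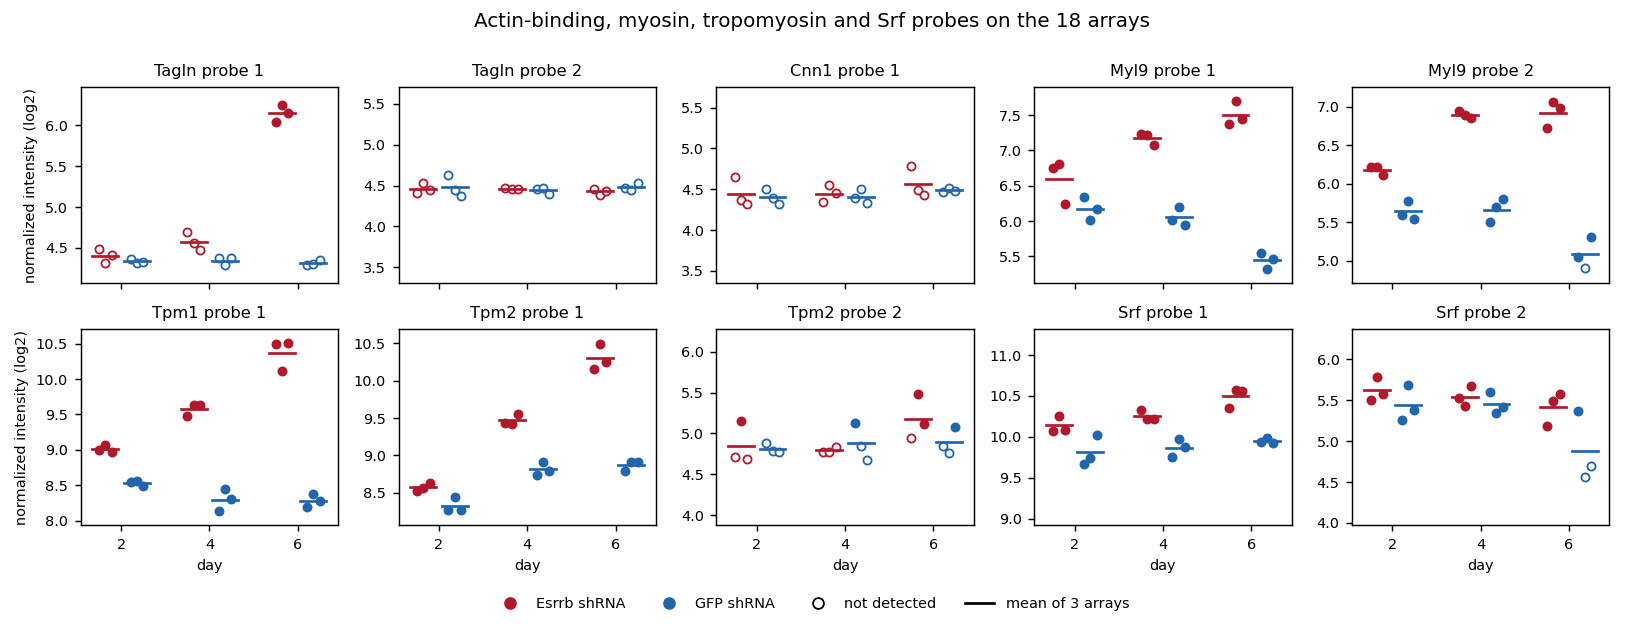
Normalized log2 intensity of the Tagln, Cnn1, Myl9, Tpm1, Tpm2 and Srf probes on the 18 arrays, by day, with Esrrb shRNA in red and GFP shRNA in blue. Open points are arrays without detection and bars are means of 3 arrays; Myl9 probe 2 and Tpm1 separate from day 2, Myl9 probe 1 overlaps at day 2, Tagln probe 1 stands farthest apart at day 6, and each panel has its own vertical scale.

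At day 2, 5 of the 14 tested probes were called higher in Esrrb shRNA cells and 0 lower, where 10.7% of all 19480 probes were called and 5.76% were called higher (limma, Benjamini-Hochberg adjusted p under 0.05). The 5 were Acta2 probe 1, both Myl9 probes, Tpm1 and Srf probe 1. No calls are counted at days 4 and 6, on which the genes were chosen. Among the 10 tested probes of genes other than Acta1 and Acta2 in GFP shRNA cells, only Tpm2 probe 1 rose between days 2 and 4, where 22.0% of all probes were called and 11.8% were higher. Between days 4 and 6 the 2 Myl9 probes and Srf probe 2 fell and 0 rose, where 33.9% were called, 17.6% higher and 16.3% lower.

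**Figure D3:**
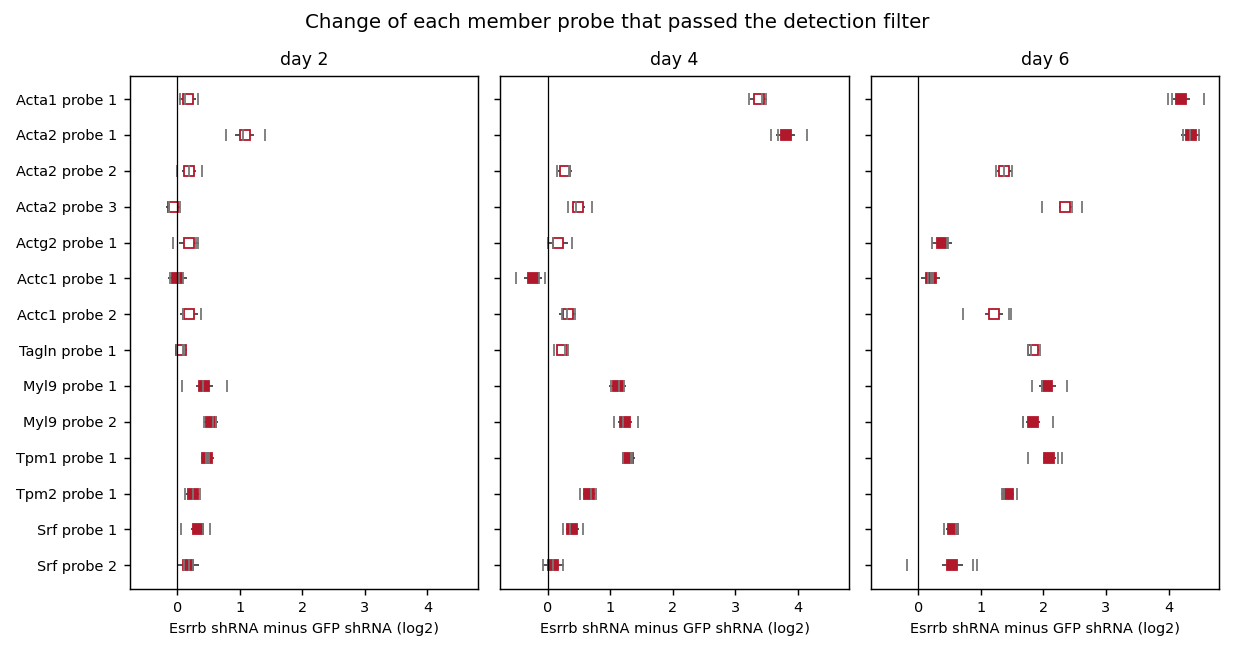
Difference between Esrrb shRNA and GFP shRNA cells (log2) at days 2, 4 and 6 for the 14 probes that passed the detection filter. Squares are differences, bars their standard errors and grey ticks the differences within each BeadChip, and open squares mark probes that at least 1 of the groups did not detect on any array; Acta1 and Acta2 probe 1 reach 4.20 and 4.35 at day 6.

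The probes most like Acta2 probe 1 over the 6 group means were found by the root mean square difference of the centred log2 means, among 15842 probes with a gene symbol. Acta1 lay at 0.38, which is a description only, since both genes were chosen for their rises on the same days and Acta1 was undetected in 3 of the 6 groups. Outside the set, the 3 nearest genes to Acta2 were Krt8 (0.79), Krt7 (0.95) and Krt18 (0.95), keratins of simple epithelia. Igf2, a growth factor gene, was among the nearest 5, at 1.22. For Acta1 the nearest 3 were Krt8 (0.65), Krt18 (0.74) and Krt7 (0.84), and the nearest 5 held Psmb8 (1.03), a subunit of the immunoproteasome. The remaining probes of the set lay farther from Acta2 probe 1 than these genes: Acta2 probe 3 at 1.62, Tpm1 and Tpm2 probe 1 at 1.72, Tagln probe 1 at 1.83 and Myl9 probe 1 at 1.90. The measure takes in the size of a change, and it compares 6 means that share their arrays.

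**Figure D4:**
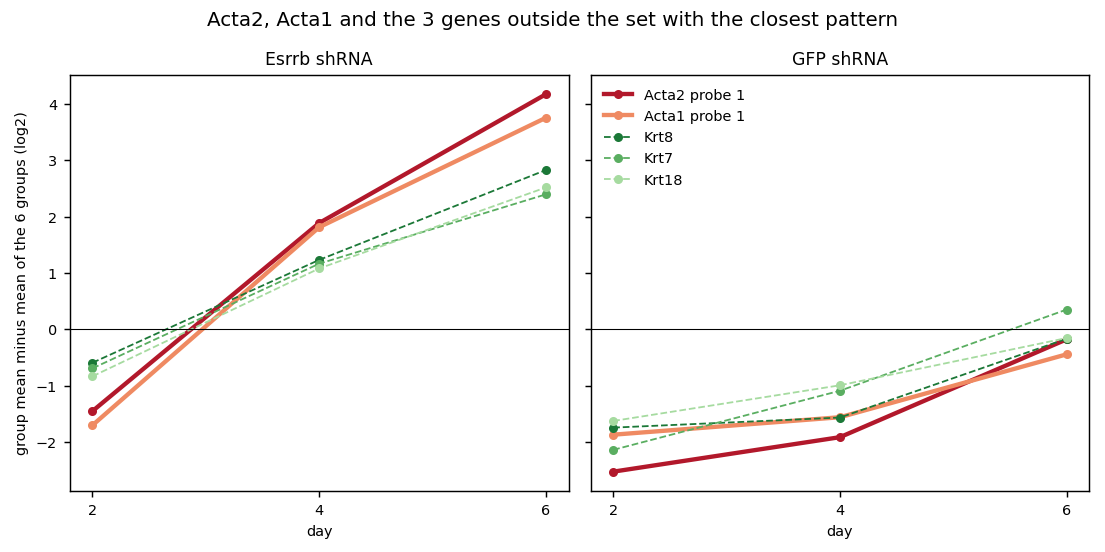
Group mean log2 intensity minus the mean over the 6 groups, by day, for Esrrb shRNA cells on the left and GFP shRNA cells on the right. Acta2 probe 1 and Acta1 (solid) lie 0.38 apart by root mean square, and the dashed lines are Krt8, Krt7 and Krt18, the 3 genes outside the set with the closest pattern.

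Other genes of the SRF and actin pathway were taken from lists of textbook members, each gene by its brightest tested probe. Over all probes, 5.76% were called higher and 4.90% lower at day 2, 11.4% and 10.2% at day 4 (21.6% in all), and 19.2% and 19.6% at day 6 (38.8% in all), and the counts of every list are to be read against these shares. The shares take in every tested probe, while a list holds only the brightest tested probe of each gene, so they are not fully alike. No list was tested against another. Of 16 tested cytoskeletal SRF targets, 5 rose and 0 fell at day 2, 8 rose and 1 fell at day 4, and 12 rose and 0 fell at day 6 in Esrrb shRNA cells. Their median differences were 0.10, 0.35 and 0.54, against a median of 0.00 for all probes on each day. Zyx, the focal adhesion protein zyxin, rose by 0.97 at day 2, 1.34 at day 4 and 1.50 at day 6 (SE 0.09, limma adjusted p 1.28e-10 at day 6). Fhl2, a LIM-domain cofactor, rose by 0.45, 0.88 and 1.50, and Tgfb1i1, the focal adhesion protein Hic-5, by 0.58, 0.51 and 1.14. Both were near the detection floor in GFP shRNA cells at days 2 and 4. There Fhl2 was detected on 1 of 3 and 2 of 3 arrays, and Tgfb1i1 on 1 of 3 on each day. Pdlim7 differed by 0.13 at day 2, short of the threshold, and rose by 0.89 and 1.00 on the later days.

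The cofactors of SRF and the actin regulators were more mixed. Of 14 tested, 1 rose at day 2, 4 rose and 1 fell at day 4, and 8 rose and 2 fell at day 6, with medians of 0.01, 0.28 and 0.46. Rhob, a small GTPase that acts on the actin cytoskeleton, was the 1 that rose at day 2, by 0.79, and it rose by 1.32 and 1.25 later (SE 0.12). Elk4, a ternary complex partner of SRF, rose by 0.70 at day 6. At day 6 Arhgef2, a guanine nucleotide exchange factor, fell by 0.83 and Limk1, the cofilin kinase, fell by 0.73. Of 6 immediate early SRF targets tested, 0 rose on any day, 2 fell at day 4 and 1 at day 6, which was Ier3 (-1.20, SE 0.10, limma adjusted p 7.51e-09).

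Genes of smooth muscle contraction split. Of 18 tested, 1 rose and 1 fell at day 2, 2 rose and 2 fell at day 4, and 6 rose and 6 fell at day 6, with medians of -0.02, -0.01 and 0.06. Csrp1, a LIM protein of smooth muscle and other cells, rose by 0.51, 0.84 and 1.37. Cald1, caldesmon, was detected on 3 of 3 arrays of Esrrb shRNA cells and 0 of 3 of GFP shRNA cells at day 6, at least 2.08-fold higher. Cald1 and Itga8, both among the 6 that rose, passed the detection filter only through the Esrrb shRNA cells at day 6. They are no support for a rise at that day. Cnn2, a calponin found in many cell types, rose by 1.23, Vcl, vinculin, by 0.77 and Actn1 by 0.64 at day 6. At day 6, 14 of the 18 were detected on all 3 arrays of Esrrb shRNA cells, against 13 of 18 in GFP shRNA cells. Myh11, Mylk and Des were detected on 0 of 3 arrays of Esrrb shRNA cells and on 3 of 3 of GFP shRNA cells at day 6. Their differences were -0.36, -0.47 and -0.53. All passed the detection filter only through the GFP shRNA cells at day 6. They are therefore no support for a fall at that day, although they are among the 6 that fell. The rest of the 6, Csrp2, Smtn and Cnn3, were detected on all 3 arrays of every group. Csrp2 fell on each day (-0.33, -0.35 and -0.40), and Smtn (-0.37) and Cnn3 (-0.32) fell at day 6. Sgca, Pln, Kcnmb1 and Speg did not pass the detection filter. The summed level of the 18 ran from 18841 to 20521 in Esrrb shRNA cells at day 6, against 20476 to 21159 in GFP shRNA cells (linear normalized intensity), of which Cnn3 made up 38.3% and 45.7%.

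Striated muscle genes were read beside Acta1. Of 33 sarcomere genes on the array, 18 were tested. At day 2, 3 rose and 2 fell, at day 4, 2 rose and 7 fell, and at day 6, 4 rose and 6 fell, with medians of -0.02, -0.21 and -0.02. Myl4, an atrial and embryonic light chain, fell on all 3 days (-0.78, -1.87 and -1.39). Myl7, the atrial regulatory light chain, also fell on each day (-0.80, -1.46 and -0.85). Myl2 was at least 1.60-fold lower at day 6, where Esrrb shRNA cells did not detect it. Myl3, a ventricular and slow-muscle light chain, went the other way against undetected GFP shRNA cells. It was at least 1.35-fold higher at day 2, at least 4.71-fold at day 4 and at least 1.60-fold at day 6. Myl3 passed the detection filter only through the Esrrb shRNA groups. It is therefore no support for a rise on any day, although it is counted among the genes that rose on each. Actn2, the sarcomeric alpha-actinin, rose by 0.53, 0.38 and 0.25. At day 6 Ttn, titin, rose by 0.81 and Tnnt3 by 0.50. Tnnt3 passed the detection filter only through the Esrrb shRNA cells at day 6 and is no support for a rise there. Myh3, Tnnt1 and Tnni3 fell by 0.97, 0.53 and 0.63 at day 4, and by 0.80, 0.79 and 0.72 at day 6. The summed level of the 18 ran from 1451 to 1577 in Esrrb shRNA cells at day 6, against 2058 to 2168 in GFP shRNA cells. Its brightest gene was Tnnt1 in Esrrb shRNA cells, at 19.6% of the sum, and Myl4 in GFP shRNA cells, at 28.2%.

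Most transcription factors of muscle did not pass the detection filter. Of 20 myogenic and cardiac factors, 8 were tested, and Myod1, Myog, Myf5, Myf6, Pax3, Pax7, Hand1 and Hand2 were among the 12 that did not pass. At day 6, 2 of the 8 rose and 2 fell, after 1 and 1 at day 2 and 0 and 1 at day 4. Gata6, an endoderm and heart factor, fell on all 3 days (-0.67, -0.79 and -1.12), and Gata4 fell by 0.52 at day 6. Mef2a rose by 0.51 at day 6, and Tbx5, a heart and limb factor at the limit of detection, was at least 1.34-fold higher. Tbx5 was also the 1 that rose at day 2, and it passed the detection filter only through the Esrrb shRNA groups. It is therefore no support for a rise at day 2 or day 6.

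Markers of fibroblasts, the other cells rich in Acta2, were set beside these values. Of 15, 7 were tested, and Col1a1, Col1a2, Col3a1, Lum, Postn, Fap, S100a4 and Snai1 did not pass the detection filter. At day 2, 1 rose and 0 fell, at day 4, 0 rose and 2 fell, and at day 6, 0 rose and 4 fell, with medians of -0.11, -0.07 and -0.40. The 1 that rose at day 2 was Dcn (0.36). It passed the detection filter only through the Esrrb shRNA cells at day 2, so it is no support for a rise at that day. The 4 that fell at day 6 were Thy1 (-1.46), Fn1 (-0.59), Pdgfra (-0.56) and Pdgfrb (-0.40). Their summed level was 1350 to 1584 in Esrrb shRNA cells at day 6, against 2084 to 2405 in GFP shRNA cells, and 1 gene, Fn1, made up 73.3% and 73.4% of it.

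The TGF-beta pathway, a known inducer of Acta2 in fibroblasts, was read in the same way. Of 10 tested genes, 2 rose and 0 fell at day 2, 3 rose and 1 fell at day 4, and 6 rose and 1 fell at day 6, with medians of 0.23, 0.20 and 0.55. Tgfb2, a ligand, rose by 1.68 at day 6 (SE 0.14, limma adjusted p 1.48e-08), and Tgfbr2, a receptor, by 0.97. Skil, a target and inhibitor of the pathway, rose by 0.56, 0.53 and 0.95. Tgfbi, a secreted target, rose by 0.31 at day 2 and fell afterwards (-0.92 and -0.64).

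Markers of embryonic stem cells show what else moved in the same RNA. All 10 tested were detected on every array of every group. At day 2, 0 rose and 4 fell, at day 4, 0 rose and 5 fell, and at day 6, 2 rose and 4 fell, with medians of -0.15, -0.28 and -0.25. Fgf4, an embryonic growth factor, fell on all 3 days (-0.68, -1.28 and -1.74). Sox2, a core pluripotency factor, (-0.55, -0.37 and -0.68) and Zfp42, a marker of the undifferentiated state, (-0.71, -1.06 and -0.47) also fell on each day. Lin28a rose by 1.47 at day 6. The summed level of the 10 was 21294 to 23141 in Esrrb shRNA cells at day 6, against 25615 to 26747 in GFP shRNA cells. Its brightest gene was Dppa4 in Esrrb shRNA cells, at 31.5% of the sum, and Nanog in GFP shRNA cells, at 32.7%. The part of these marker values in the actin values was not tested.

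**Figure D5:**
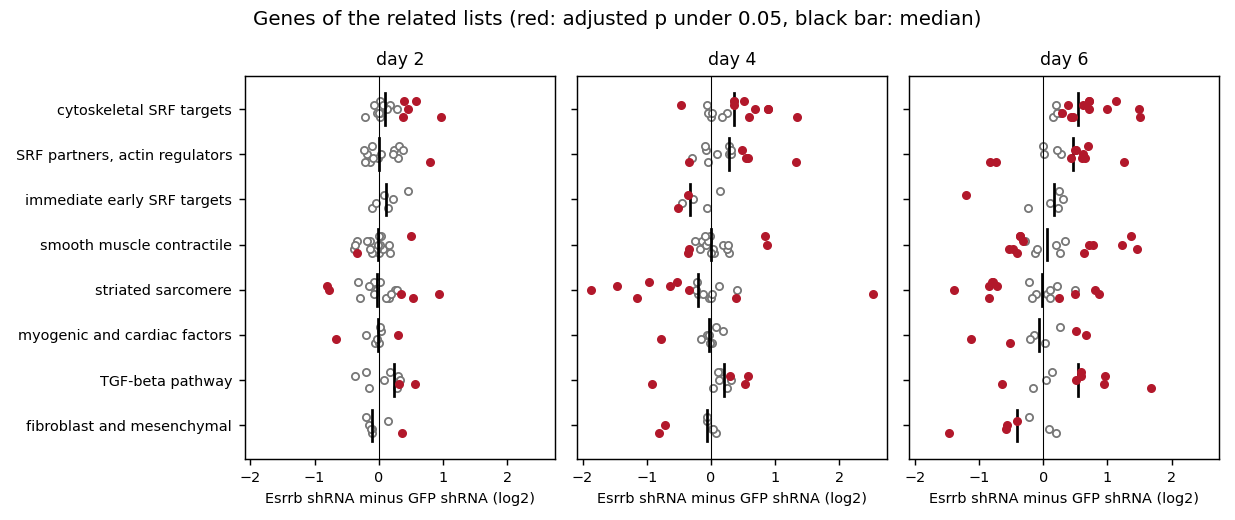
Difference between Esrrb shRNA and GFP shRNA cells (log2) at days 2, 4 and 6 for the tested genes of 8 related lists, 1 point per gene. Red points passed a limma adjusted p of 0.05, open points did not, and black bars are list medians, which reach 0.54 for cytoskeletal SRF targets at day 6 and -0.40 for fibroblast markers.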

How the data were processed

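RNA of 18 samples was read on Illumina MouseWG-6 1.1 arrays. The deposited intensity of each probe is the mean over its beads, summarised with BeadStudio 3.2.6 without normalization, per the file headers. The detection score, deposited as a fraction between 0 and 1, is high where the signal is high, and 1 minus it served as the detection p. Bead numbers per probe, deposited beside them (unit: other), lie between 3 and 107. A table that the authors normalized, also deposited as intensity, has identifiers that the raw table lacks, so only counts of calls were taken from it.

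The function neqc of limma 3.58.1 in R 4.3.3 corrected the background with the detection p, added an offset of 16, quantile-normalized and took log2. The 38 control and non-mouse probes were left out of the tests. All tested probes, each on its own, entered a linear model with a mean for each of the 6 groups (lmFit, eBayes, two-sided, Benjamini-Hochberg per comparison over 19480 probes), after tests on simulated data. For arrays, their number limits the precision. Where a group did not detect a probe, it was set to each array's lowest detected signal or its own level, whichever was higher, and the fold is given as "at least".

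Target names matched RefSeq symbols for 16079 of 34325 names, a further 6653 through 1 synonym, and 11593 were kept. The replicate number is the BeadChip, per the file headers, so numbers pair the arrays. Deviations from the group means correlated at a median of 0.12 between arrays of the same number and -0.06 between others. The genes, lists and tests were chosen with earlier results of these data known. Named list genes are up to 4 per list with the largest called change at day 6, with these exceptions. Every sarcomere gene and every smooth muscle gene called at day 6 is named. Myh11, Mylk, Des, Itga8 and Dcn are named for the group through which they passed the detection filter. Genes that did not pass it, and the brightest gene of a summed level, are also named. Of the 5 genes nearest to Acta2 and to Acta1, 1 is not reported here.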

Additional observations from a re-analysis of the deposited data

Results flagged for a closer look

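Actc1 probe 1 was lower in Esrrb shRNA cells than in GFP shRNA cells on all 3 BeadChips at day 4, with a mean difference of -0.23 (log2), and higher on all 3 at day 6, with a mean of 0.20. It drew attention because every BeadChip turned direction between the days. The difference between the days was not tested. The arrays of the groups overlapped on both days, and 2 of 3 Esrrb arrays at day 4 and 3 of 3 at day 6 detected the probe, against 2 of 3 GFP arrays on each day.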

How the results depend on the processing

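No called difference changed direction under the alternatives run: no background correction, median centring in place of quantile normalization, no detection filter and a stricter one, 1 probe per target name, the BeadChip as a replicate block, the arrays of the 2 compared groups alone, and each replicate left out. The count of probes of the set called at day 2, which was 5, was 3 under median centring, without the detection filter and with the arrays of the 2 groups alone, and 3 to 4 with a replicate left out. The probes lost under those 3 settings were Myl9 probe 1 (adjusted p 0.0502, 0.11 and 0.201) and Srf probe 1 (0.115, 0.0545 and 0.212). The cause was not tested. With 1 probe per target name, which leaves out the second Myl9 and Srf probes, 1 probe of the set was called in GFP shRNA cells between days 4 and 6, against 3. With the arrays of the 2 groups alone, which gives fewer samples, 930 of all probes were called at day 2, against 2076, and 2156 in GFP shRNA cells between days 2 and 4, against 4279. Median centring gave 2852 there. It also moved the median of all probes by 0.10 at day 4, where 3056 probes were called higher and 940 lower against 2221 and 1982, and by 0.11 in GFP shRNA cells between days 4 and 6, with 4749 higher and 1461 lower against 3428 and 3167. With the replicate block, 5 probes of the set were again called at day 2, and the block changed no call of a tested probe of the set. Signal near background limits the dim probes. Without background correction the day 6 difference of Tagln probe 1 was 1.23, against 1.83, and uncorrected values of other probes stand beside their results.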
